A study of Homo sapiens with 33 samples.

Results

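ATF4 is the transcription factor at the centre of the integrated stress response, and 8 genes of its circuit were followed here across every group of an RNA sequencing study of DNA base editors: ATF4 itself, ATF3, ATF5, DDIT3, CEBPB, CEBPG, TRIB3 and CHAC1. They were chosen by gene symbol and are 8 of the 26475 genes in the deposited count table. All 8 passed the filter on low counts, which 14613 genes passed in all, so no member was lost to it.

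The cells were HEK293T, a human embryonic kidney line, transfected with a plasmid for a construct that carries GFP and, outside the GFP group, with a guide RNA plasmid, and sorted for GFP 36 to 40 h later. Base editors join a Cas9 nickase to a deaminase. ABEmax and miniABEmax-V82G are adenine editors, Target-AID is a cytosine editor, and SpACE is the dual editor of the study. Guides for HEKsite2 and for RNF2 were each combined with all 4 of these. The nickase without a deaminase, nCas9, was used with both guides as a negative control, and GFP with no guide was the other negative control. That gives 11 groups of 3 libraries, 33 in all. All groups share the line, the transfection and the sort, and no untransfected cells were analysed here. The labels number the replicates but do not say whether they were separate cultures, so the p-values measure the spread between these libraries, which may be technical.

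The sum of counts ran from 6790209 to 11200406 per library. Each of the 33 pairs of replicates differed by more than counting noise (chi-square per degree of freedom 1.40 to 20.7), and the pairs that include replicate 3 of Target-AID stood apart, at 9.92 to 20.7 over both guides, against at most 5.02 for all other pairs. For Target-AID against nCas9, the counts of genes called and some of the values are therefore also given without that library. Of 7 markers of the line, PAX2 had no count in some libraries and at most 0.809 CPM (counts scaled to library size), and the other 6 were present in all 33 libraries. The sum of the 7 was 504 to 574 CPM in the Target-AID libraries and 579.6 to 697 in the others. Summed over 10 liver markers the level was 1.88 to 3.63 CPM in Target-AID, carried by APOB and SERPINA1 with ALB at or below 0.371, and at most 1.27 in all other groups. Sums of 8 erythroid markers (4.34 to 10.9, mostly EPOR), 7 mesenchymal markers (10.1 to 25.9, with GFP the highest) and 6 leukocyte markers (1.69 to 4.99) were also low. The part of these differences in the results was not tested.

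As background, kinases that sense lack of amino acids, misfolded protein in the endoplasmic reticulum, double-stranded RNA or lack of heme phosphorylate the initiation factor eIF2alpha. Protein synthesis then falls, while the ATF4 mRNA, which carries upstream reading frames, is translated more. ATF4 binds DNA as a dimer, often with a C/EBP protein, and raises genes for amino acid supply together with further regulators. Control of ATF4 is thus largely at translation, and the table measures mRNA only.

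ATF4, CEBPB and CEBPG are basic leucine zipper (bZIP) proteins that can pair with each other. ATF5 is a related bZIP factor that is also controlled at translation, and ATF3 and DDIT3 (CHOP) are bZIP factors induced by stress. TRIB3 is a pseudokinase that is induced by ATF4 and DDIT3 and restrains their activity. CHAC1 is an enzyme that breaks down glutathione and is a known target of ATF4.

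The composite element that binds a C/EBP-ATF dimer has the core TGATGNAA. RefSeq promoter windows of 300 bases (GRCh38.p14) were found for all 8 genes, 17 windows in all, and were searched on both strands. The core was present in 3 of these 17 windows, 1 each of ATF3, CHAC1 and CEBPG, and in 3.62% of all 35116 windows in the table. Its matches are shown because they differ in place and strand. Each sequence is 30 bases of the plus strand, which is also the strand of the gene, with the core in capitals.
ATF3: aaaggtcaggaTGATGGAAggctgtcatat
CHAC1: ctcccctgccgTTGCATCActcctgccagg
CEBPG: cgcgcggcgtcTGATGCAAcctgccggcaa
The ATF3 sequence lies at chr1:212565205-212565234, with the core starting 191 bases before the RefSeq start and outside the GENCODE gene. For CHAC1, at chr15:40953251-40953280, the core is on the minus strand and starts 209 bases before the RefSeq start. That place is in an untranslated part of an exon in 2 GENCODE transcripts. The CEBPG sequence, at chr19:33374060-33374089, has the core 42 bases before a RefSeq start and in no GENCODE exon. The cyclic AMP response element TGACGTCA, which ATF proteins also bind, was in none of the 17 windows and in 1.85% of all windows. A match is a run of letters and not a measured binding site.

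Genes were compared with edgeR's quasi-likelihood F-test on the counts of all 33 libraries, two-sided, with Benjamini-Hochberg adjustment across 14613 genes, and a gene is called changed where the adjusted p is under 0.05. Levels in CPM are given as mean ± SD over 3 libraries. They are not divided by gene length, so levels of different genes are not set against each other. Log2 fold changes are the first group named over the second.

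**Figure D1:**
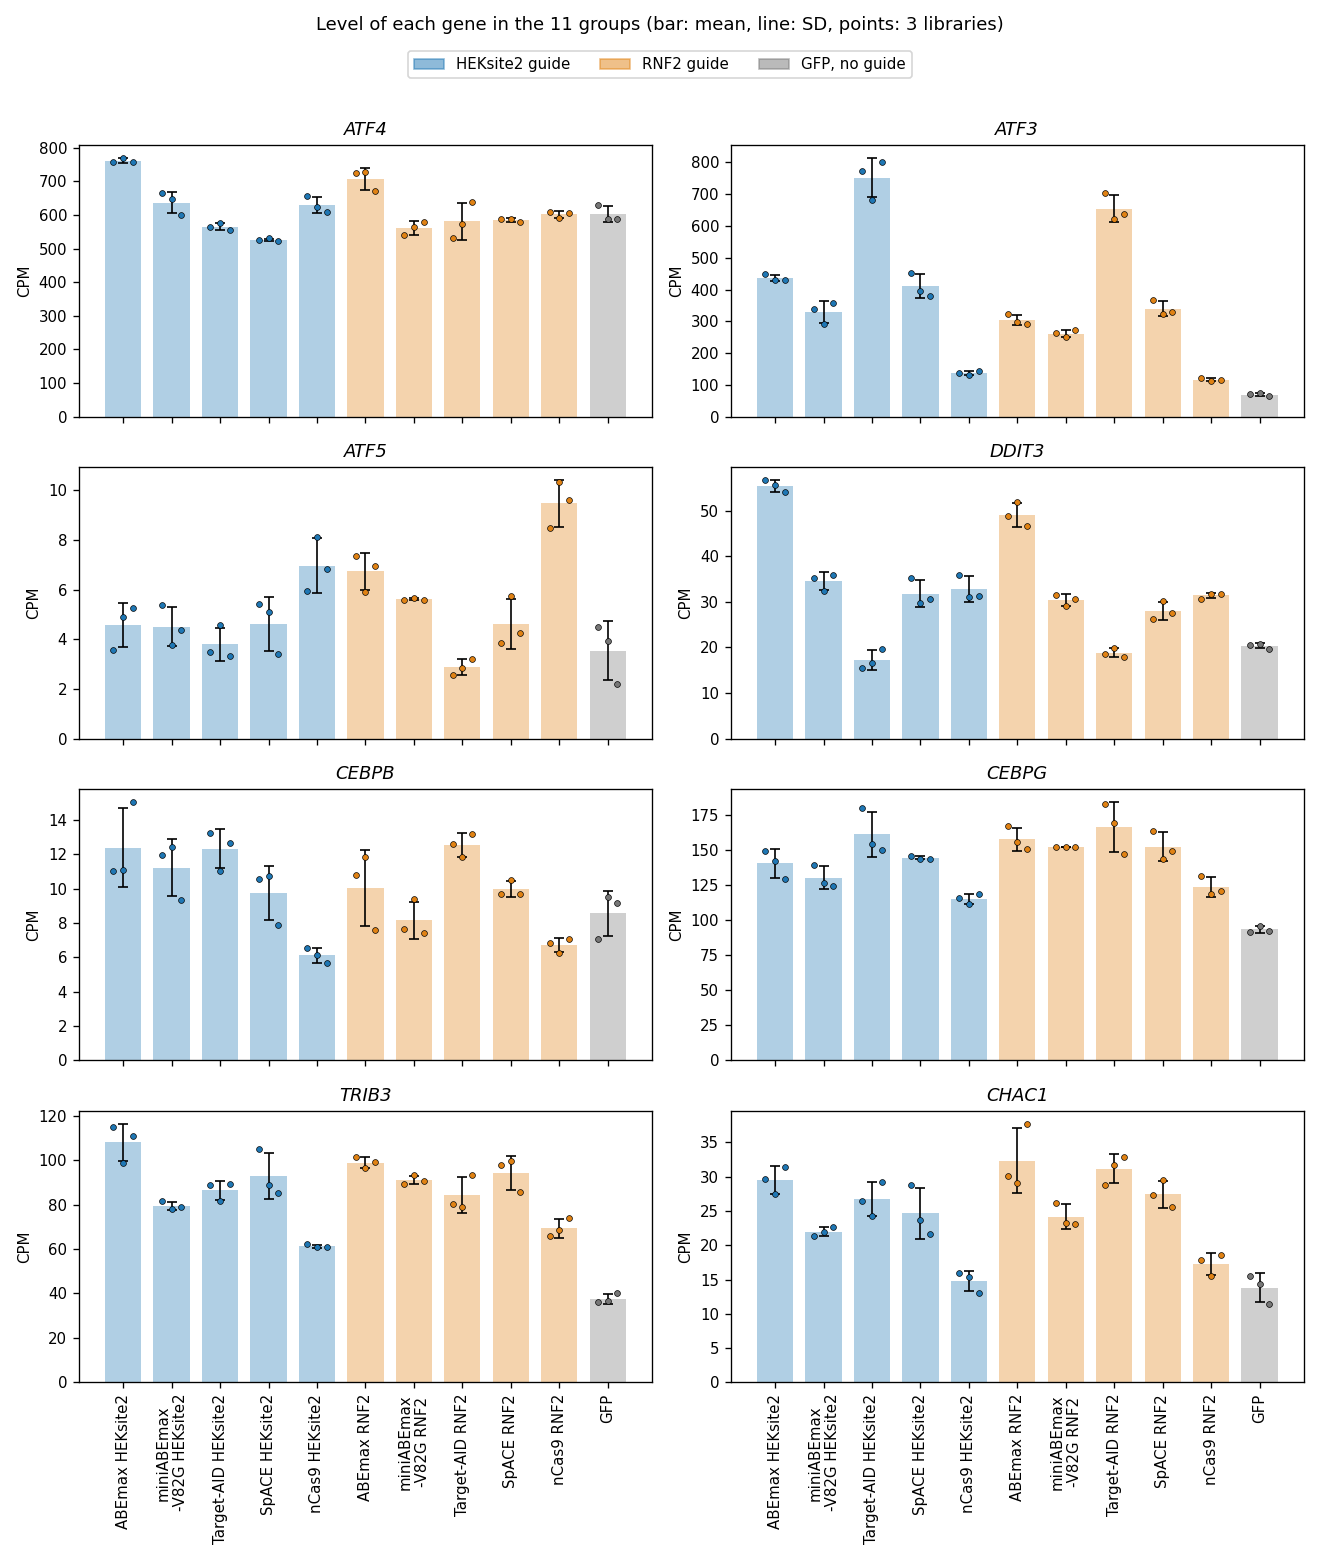
Level of each of the 8 genes in CPM (y axes, each from 0) in the 11 groups (x axis); bars are means, lines SD and points the 3 libraries, with the HEKsite2 groups in blue, the RNF2 groups in orange and GFP in grey. ATF3 spans 69.0 to 752 CPM between group means, whereas ATF4 spans 525 to 761 CPM.

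The editors were first set against nCas9 with the same guide. An editor construct may differ from nCas9 in more than the deaminase, and such parts cannot be told apart here. With the HEKsite2 guide, 8 of the 8 genes changed with ABEmax, where 15.9% of all genes were called. With miniABEmax-V82G 5 changed (10.3% of all genes), with Target-AID 8 (40.6%) and with SpACE 7 (21%). With RNF2 as the target the counts were 7 with ABEmax (11.2% of all genes), 5 with miniABEmax-V82G (12.6%), 7 with Target-AID (35.2%) and 6 with SpACE (14.7%). The median log2 fold change of the 8 genes lay between 0.27 and 0.79 in these comparisons, and that of all genes between -0.01 and 0.00. In bulk RNA a change in the share of cells that respond and a change in RNA per cell cannot be told apart.

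ATF3, TRIB3 and CHAC1 rose in all 8 comparisons, CEBPB and CEBPG in 7, and ATF5 fell in 7. ATF4 and DDIT3 went in both directions, each higher in 2 comparisons, lower in 2 and not called in 4. Without replicate 3, Target-AID still changed 7 genes with the HEKsite2 guide and 7 with the RNF2 guide. Over the fits that each left out a library, 4933 to 5517 of all 14613 genes were called with HEKsite2, against 5932 with none left out. With RNF2 these counts were 4030 to 5567, against 5146.

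**Figure D2:**
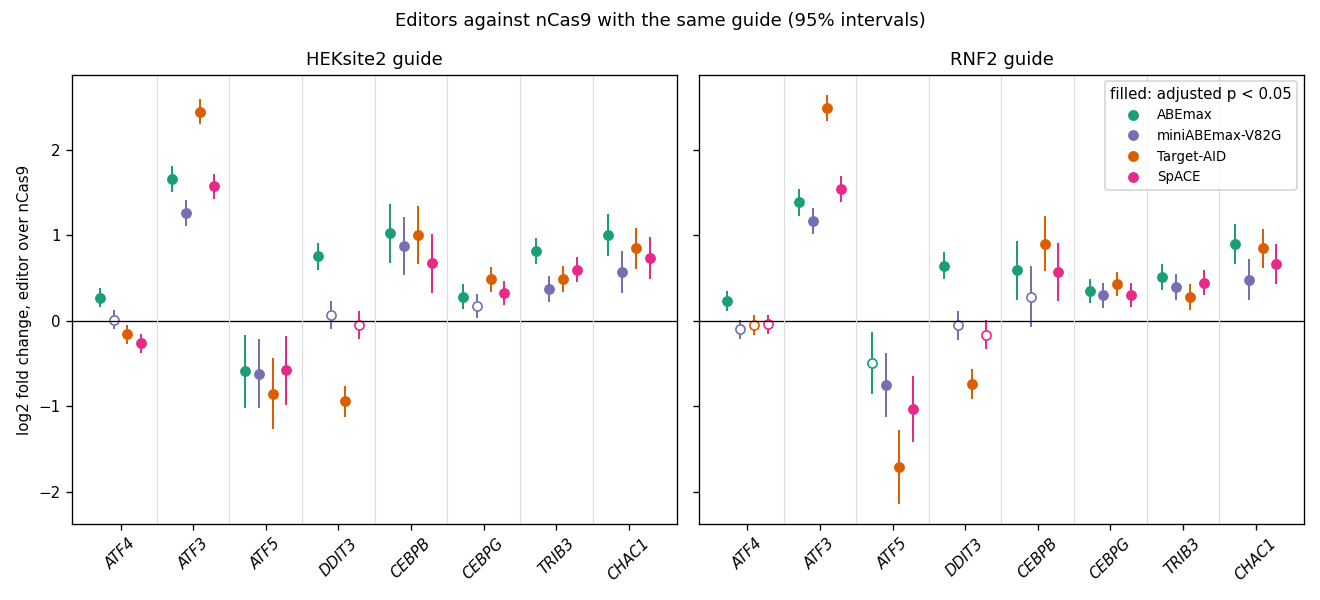
Log2 fold change of each gene, editor over nCas9 with the same guide (y axis), by gene (x axis) for ABEmax, miniABEmax-V82G, Target-AID and SpACE, with 95% intervals from the fit; filled points have an adjusted p under 0.05. ATF3 is above 1 for every editor and highest for Target-AID, ATF5 lies below 0 throughout, and DDIT3 splits ABEmax (above 0) from Target-AID (below 0).

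ATF4 mRNA moved little. With the HEKsite2 guide its level was 757, 769 and 757 CPM in the ABEmax libraries, 522 to 530.0 CPM in the 3 SpACE libraries, and 656, 624 and 610 CPM in the nCas9 libraries. ABEmax libraries were all above nCas9 and SpACE libraries all below it. The log2 fold change against nCas9 was 0.27 ± 0.06 (SE) for ABEmax (adjusted p = 6.22e-04) and -0.26 ± 0.06 for SpACE (adjusted p = 7.22e-04). Target-AID averaged 565 ± 9.64 CPM, below nCas9 by 0.16 on the log2 scale (adjusted p = 0.0232), and this call was lost without its replicate 1 or 3 or nCas9 replicate 1 and with only the groups compared in the fit (adjusted p from 0.0539 to 0.116). Without replicate 3 the value was -0.15 (adjusted p = 0.0668). The miniABEmax-V82G libraries, at 601 to 664 CPM, overlapped those of nCas9.

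With the RNF2 guide only the ABEmax value of ATF4 passed the test among the 4 editors. It averaged 707 ± 32.4 CPM in ABEmax and 601 ± 10.3 CPM in nCas9 (log2 fold change 0.23 ± 0.06, adjusted p = 0.00447). The other 3 editors lay between -0.10 and -0.04, and the lowest bound of their 95% intervals was -0.21. Over all 11 groups the highest mean, in ABEmax with HEKsite2, was 1.45 times the lowest, in SpACE with HEKsite2. The table has no rows for the 4 ATF4 pseudogenes of GENCODE, and how reads shared with them were counted is not given in the sources used here.

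ATF3, a bZIP factor that stress induces and that mostly acts as a repressor, had the widest span of the 8 genes. With the HEKsite2 guide it had 774, 683 and 800.2 CPM in the Target-AID libraries, 448, 430.3 and 430.1 CPM in the ABEmax libraries, and 138, 131 and 145 CPM in the nCas9 libraries. SpACE had 453, 396 and 381 CPM and miniABEmax-V82G 340.1, 291 and 359 CPM. Each editor library was above each nCas9 library, and the Target-AID libraries were above all others with this guide.

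On the log2 scale ATF3 rose over nCas9 by 2.45 ± 0.07 with Target-AID, 1.66 ± 0.07 with ABEmax, 1.57 ± 0.07 with SpACE and 1.26 ± 0.07 with miniABEmax-V82G (SE, adjusted p from 4.62e-27 to 3.63e-16). With the RNF2 guide the rises were 2.49 with Target-AID, 1.54 with SpACE, 1.38 with ABEmax and 1.17 with miniABEmax-V82G (adjusted p from 3.48e-27 to 1.16e-14). Without replicate 3 the Target-AID values were 2.40 and 2.51. In rank of group means, Target-AID with RNF2 followed Target-AID with HEKsite2 and their libraries overlapped, and ABEmax and SpACE with HEKsite2 came next and overlapped with each other. SpACE with RNF2, miniABEmax-V82G with HEKsite2 and ABEmax with RNF2 formed an overlapping run, and miniABEmax-V82G with RNF2, nCas9 with HEKsite2, nCas9 with RNF2 and GFP each stood below the group before with no overlap.

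ATF5 went the other way, at low counts of 20 to 83 per library. With the RNF2 guide it had 2.56, 2.86 and 3.22 CPM in Target-AID, 3.84, 5.75 and 4.26 CPM in SpACE, and 8.47, 10.4 and 9.61 CPM in nCas9. No library of these editors reached the lowest nCas9 library. The log2 fold change was -1.71 ± 0.21 for Target-AID (adjusted p = 1.02e-08) and -1.03 ± 0.19 for SpACE (adjusted p = 1.09e-04). MiniABEmax-V82G fell by 0.75 (adjusted p = 0.00544), and ABEmax, at -0.49, was not called (adjusted p = 0.0669) unless only the groups compared entered the fit (adjusted p = 0.0428).

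With the HEKsite2 guide ATF5 averaged 3.80 ± 0.66 CPM in Target-AID, 4.58 ± 0.89 CPM in ABEmax, 4.51 ± 0.80 CPM in miniABEmax-V82G, 4.63 ± 1.09 CPM in SpACE and 6.97 ± 1.10 CPM in nCas9. The falls of ABEmax (-0.59), miniABEmax-V82G (-0.62) and SpACE (-0.58) passed the test with adjusted p from 0.0324 to 0.0472. Those 3 calls were lost under DESeq2, with adjusted p from 0.0513 to 0.0702, and when nCas9 replicate 2 or replicate 3 was left out. They were also lost without any 1 of the ABEmax libraries, without miniABEmax-V82G replicate 2 or 3 and without SpACE replicate 3, each for its own editor, with adjusted p up to 0.209. With library totals as the only scaling, the ABEmax call was lost as well (-0.57, adjusted p = 0.0614). The fall of Target-AID (-0.85, adjusted p = 8.17e-04) held without its replicate 3, at -0.78 (adjusted p = 0.00547). The gene overlaps NUP62 on the opposite strand, whose values against nCas9 were all above 0, from 0.19 to 0.39, and the strand setting of the counting is not given in the sources used here, so reads from the overlap cannot be assigned to one of these genes.

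DDIT3, which encodes CHOP, a bZIP factor linked to cell death in lasting stress, separated the editors. With the HEKsite2 guide it had 56.7, 55.7 and 54.1 CPM in ABEmax, 15.4, 16.7 and 19.6 CPM in Target-AID, and 36.0, 31.1 and 31.3 CPM in nCas9. With the RNF2 guide it had 48.8, 51.9 and 46.8 CPM in ABEmax, 18.6, 19.9 and 17.9 CPM in Target-AID, and 30.7, 31.8 and 31.8 CPM in nCas9. With both guides all ABEmax libraries were above all nCas9 libraries and all Target-AID libraries below them.

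DDIT3 rose with ABEmax by 0.76 ± 0.08 with HEKsite2 (adjusted p = 1.94e-09) and by 0.65 ± 0.08 with RNF2 (adjusted p = 1.52e-07). It fell with Target-AID by 0.94 ± 0.09 (adjusted p = 3.44e-11) and by 0.74 ± 0.09 (adjusted p = 1.11e-08), and without replicate 3 the values were -1.03 and -0.71. Neither miniABEmax-V82G (0.07 and -0.05) nor SpACE (-0.05 and -0.16) was called. Their 95% intervals ran from -0.33 to 0.24, which leaves out changes as large as those of ABEmax and Target-AID.

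DDIT3 overlaps MARS, the gene of methionyl-tRNA synthetase, and MBD6, both on the opposite strand. MARS rose with every editor over nCas9, by 0.18 to 0.41, Target-AID included, and MBD6 was called in none of the 8 comparisons. With Target-AID DDIT3 fell where MARS rose. With ABEmax both genes rose, and the MARS rises were the largest there (0.41 with HEKsite2 and 0.37 with RNF2). Over all libraries MARS had 114070 counts and DDIT3 8801. The part of overlapping reads in the DDIT3 counts was not tested.

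**Figure D3:**
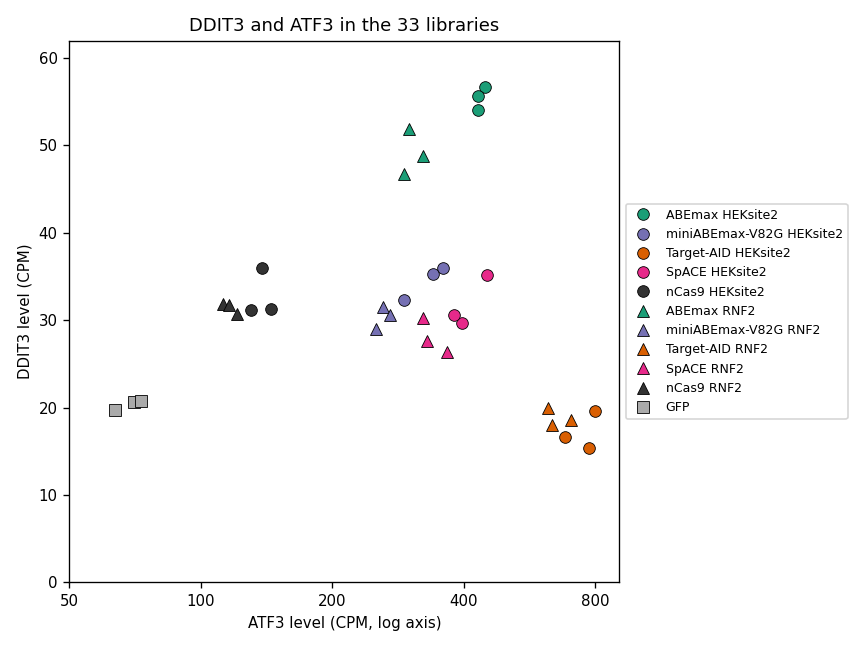
DDIT3 level (y axis, CPM) against ATF3 level (x axis, CPM, log axis) in the 33 libraries; circles are HEKsite2, triangles RNF2 and squares GFP, coloured by construct. The Target-AID libraries have the highest ATF3 of all, 623 to 800.2 CPM, with DDIT3 at 15.4 to 19.9 CPM beside GFP at 19.8 to 20.8 CPM, whereas ABEmax libraries have the highest DDIT3.

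The C/EBP partners moved together in direction but not in size. CEBPB, a bZIP factor of inflammation and differentiation, had 11.01, 11.1 and 15.1 CPM in ABEmax with HEKsite2, 13.3, 11.1 and 12.6 CPM in Target-AID, and 6.55, 6.17 and 5.65 CPM in nCas9, at 44 to 129 counts per library over the table. All libraries of both editors were above those of nCas9. The rises were 1.02 ± 0.17 with ABEmax, 1.01 ± 0.17 with Target-AID, 0.88 ± 0.17 with miniABEmax-V82G and 0.67 ± 0.17 with SpACE (adjusted p from 3.37e-06 to 0.00373).

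With the RNF2 guide CEBPB rose by 0.90 with Target-AID, 0.59 with ABEmax and 0.57 with SpACE (adjusted p from 1.73e-05 to 0.0172). The ABEmax call was lost when its replicate 1 or 2 or nCas9 replicate 2 was left out (adjusted p 0.0692, 0.125 and 0.0859), and the SpACE call without its replicate 2 or nCas9 replicate 2 (adjusted p 0.0527 and 0.0633). MiniABEmax-V82G averaged 8.15 ± 1.08 CPM against 6.71 ± 0.42 CPM in nCas9 and was not called (0.28, 95% interval -0.07 to 0.64, adjusted p = 0.31). CEBPB overlaps CEBPB-AS1 on the opposite strand, which was called in none of these 8 comparisons but was higher in both nCas9 groups than in GFP (1.12, adjusted p = 0.029, with HEKsite2 and 1.68, adjusted p = 4.02e-04, with RNF2).

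CEBPG, the partner that pairs readily with ATF4 and lacks an activation domain of its own, rose less. It averaged 161 ± 16.1 CPM in Target-AID, 144 ± 1.08 CPM in SpACE, 140.3 ± 10.1 CPM in ABEmax, 130.0 ± 8.17 CPM in miniABEmax-V82G and 115 ± 3.46 CPM in nCas9 with HEKsite2. The rises of Target-AID (0.49), SpACE (0.33) and ABEmax (0.28) passed the test (adjusted p from 5.03e-07 to 0.00522), and miniABEmax-V82G, at 0.17, did not (adjusted p = 0.114). With RNF2 all 4 editors rose by 0.30 to 0.43 (adjusted p from 5.25e-06 to 0.00412).

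Of the effectors, TRIB3, the feedback inhibitor, had 115, 98.6 and 111 CPM in ABEmax with HEKsite2 and 62.1, 61.0 and 60.9 CPM in nCas9. Its groups did not overlap in any of the 8 comparisons. The rise was largest with ABEmax and HEKsite2, at 0.82 ± 0.07 (adjusted p = 5.67e-11), and lowest with Target-AID and RNF2, at 0.28 ± 0.07 (adjusted p = 0.00265), or 0.20 without replicate 3 (adjusted p = 0.0331). SpACE rose by 0.60 with HEKsite2 and 0.45 with RNF2, and miniABEmax-V82G by 0.37 and 0.39.

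CHAC1, the glutathione-degrading enzyme whose core element is shown above, had 29.6, 27.4 and 31.5 CPM in ABEmax with HEKsite2, 26.5, 24.3 and 29.2 CPM in Target-AID, and 15.9, 15.4 and 13.1 CPM in nCas9. Every editor library was above every nCas9 library with both guides. It rose by 1.00 ± 0.12 with ABEmax, 0.85 ± 0.12 with Target-AID, 0.74 ± 0.12 with SpACE and 0.57 ± 0.12 with miniABEmax-V82G (adjusted p from 6e-08 to 0.00133). With RNF2 it rose by 0.90 with ABEmax, 0.85 with Target-AID, 0.67 with SpACE and 0.48 with miniABEmax-V82G (adjusted p from 1.16e-07 to 0.0057), and the miniABEmax-V82G call was lost without nCas9 replicate 2 (0.41, adjusted p = 0.0561).

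The negative controls also differed from each other. Between nCas9 and GFP, 6 of the 8 genes changed with HEKsite2, where 38.4% of all genes were called, and 6 with RNF2 (41.5% of all genes). Among all genes called, 51.1% were higher in nCas9 with HEKsite2 and 50.5% with RNF2, or 66.4% and 70.6% on library totals with no further scaling. These groups differ in the nickase, the guide and the plasmids together, which cannot be told apart.

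ATF3, ATF5, DDIT3, CEBPG and TRIB3 were higher in nCas9 with both guides. ATF3 had 131 to 145 CPM in nCas9 with HEKsite2, 113 to 121 CPM in nCas9 with RNF2, and 63.6 to 73.0 CPM in GFP (log2 fold changes 1.00 and 0.76, adjusted p = 1.06e-12 and 8.15e-10). ATF5 had 5.94 to 8.13 CPM in nCas9 with HEKsite2, 8.47 to 10.4 CPM in nCas9 with RNF2, and 2.21 to 4.48 CPM in GFP (0.95 and 1.39, adjusted p = 2.63e-04 and 1.81e-07). Neither gene's nCas9 libraries overlapped those of GFP.

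DDIT3 rose by 0.69 and 0.62, TRIB3 by 0.71 and 0.89 and CEBPG by 0.30 and 0.40 in nCas9 with HEKsite2 and with RNF2 (adjusted p from 1.37e-11 to 8.53e-04). CEBPB was lower in nCas9 than in GFP with HEKsite2 (-0.49, adjusted p = 0.0212), a call lost without GFP replicate 2 or 3 or nCas9 replicate 3 (adjusted p 0.107, 0.0674 and 0.0878), while its antisense neighbour CEBPB-AS1 was higher (1.12). With RNF2 CEBPB was not called (-0.35, adjusted p = 0.0857), except without GFP replicate 1 (-0.47, adjusted p = 0.031). CHAC1 was called with RNF2 (0.32, adjusted p = 0.0366), with overlapping libraries, and lost the call without GFP replicate 2 or 3 or nCas9 replicate 1 or 3 (adjusted p from 0.0523 to 0.223). ATF4 was called with neither guide (0.07 and -0.0016), and its 95% intervals ran from -0.11 to 0.18. With library totals as the only scaling, which shifts the median of all genes by up to 0.138, the HEKsite2 value was 0.14 and passed (adjusted p = 0.0272).

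**Figure D4:**
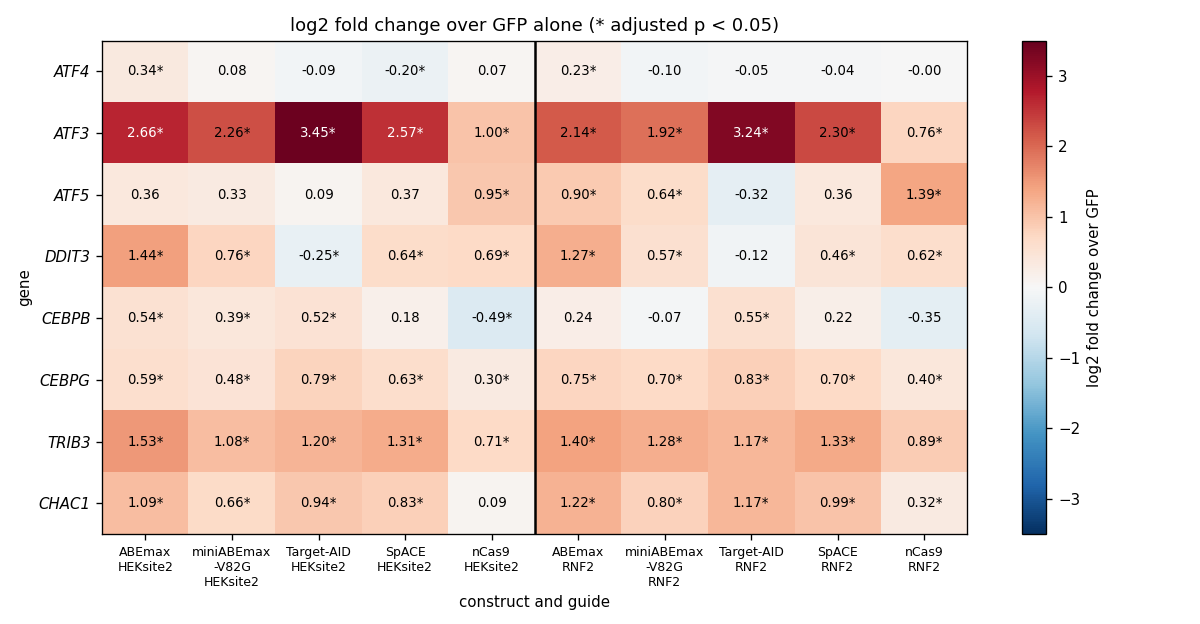
Log2 fold change over GFP (colour and number) of each gene (rows) in each of the 10 groups with a guide (columns; HEKsite2 left of the line, RNF2 right of it, nCas9 last in each block); a star marks an adjusted p under 0.05. ATF3, CEBPG and TRIB3 are starred in all 10 columns, and DDIT3 is at -0.25 and -0.12 in Target-AID, against 0.69 and 0.62 in nCas9.

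The same libraries against GFP give the whole distance from cells with GFP alone, and share those GFP libraries with the comparison before. With HEKsite2, 7 of 8 genes changed in ABEmax (46.8% of all genes), 6 in miniABEmax-V82G (39.8%), 6 in Target-AID (46.4%) and 6 in SpACE (36.6%). With RNF2 the counts were 7 in ABEmax (49.6%), 6 in miniABEmax-V82G (47%), 5 in Target-AID (46.2%) and 5 in SpACE (37.9%). Over these 8 comparisons 49.9% to 53.4% of the genes called were higher, or 65.2% to 70.8% on library totals. ATF3, CEBPG, TRIB3 and CHAC1 were higher than in GFP with all editors and guides.

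ATF3 in Target-AID with HEKsite2 averaged 752 ± 61.6 CPM, against 69.0 ± 4.85 CPM in GFP, a log2 fold change of 3.45 ± 0.08 (adjusted p = 1.62e-31). DDIT3 averaged 17.2 ± 2.13 CPM in Target-AID with HEKsite2 and 20.4 ± 0.55 CPM in GFP (-0.25, adjusted p = 0.0229), a call that did not hold when library totals were used without a scaling factor (-0.15, adjusted p = 0.182) or when a Target-AID replicate (1 or 2) or a GFP replicate (1 or 2) was left out (adjusted p from 0.0615 to 0.162). With RNF2 it was not called (-0.12). ATF4 was above GFP in ABEmax with both guides (0.34 and 0.23) and below it in SpACE with HEKsite2 (-0.20, adjusted p = 0.0053). The SpACE call did not hold on library totals (-0.11, adjusted p = 0.0829). In the other 5 groups ATF4 was not called. In miniABEmax-V82G with HEKsite2 (0.08) it passed on library totals (0.15, adjusted p = 0.0125). In miniABEmax-V82G with RNF2 (-0.10) it passed with only the groups compared in the fit (adjusted p = 0.0392). CEBPB was above GFP in Target-AID with both guides (0.52 and 0.55) and in ABEmax and miniABEmax-V82G with HEKsite2 (0.54 and 0.39). In ABEmax with RNF2 it was not called (0.24, adjusted p = 0.209), but passed on library totals (0.36, adjusted p = 0.0461) and without ABEmax replicate 3 (0.40, adjusted p = 0.0374). Its ABEmax call with HEKsite2 was lost without ABEmax replicate 3 (adjusted p = 0.0767), and its miniABEmax-V82G call under DESeq2 (adjusted p = 0.0591) and without miniABEmax-V82G replicate 1 or 2 or GFP replicate 1 (adjusted p from 0.103 to 0.186). ATF5 was above GFP in ABEmax and miniABEmax-V82G with RNF2 (0.90 and 0.64) and was not called in the other 6 groups, where values ran from -0.32 to 0.37. The miniABEmax-V82G call was lost without GFP replicate 3 (0.41, adjusted p = 0.116).

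Calls of separate editors against nCas9 do not show that the editors differ, so editors were also compared directly with the same guide. Target-AID against ABEmax changed 5 of the 8 genes with HEKsite2 (26% of all genes) and 5 with RNF2 (26.1%). ATF3 was higher in Target-AID by 0.79 ± 0.07 and 1.10 ± 0.07 (adjusted p = 1.20e-11 and 5.54e-16). DDIT3 was lower by 1.69 ± 0.09 and 1.39 ± 0.08 (adjusted p = 7.39e-20 and 4.14e-17), ATF4 by 0.43 and 0.28, and TRIB3 by 0.32 and 0.23. The TRIB3 call with RNF2 (adjusted p = 0.0129) was lost without ABEmax replicate 1 or Target-AID replicate 1 or 2 and with only the groups compared in the fit (adjusted p from 0.0524 to 0.0818). CEBPG was higher with HEKsite2 (0.20, adjusted p = 0.0286), a call lost without Target-AID replicate 1 or ABEmax replicate 2 or 3, and ATF5 lower with RNF2 (-1.22, adjusted p = 3.07e-05). Neither CEBPB (-0.02 and 0.31) nor CHAC1 (-0.15 and -0.05) was called, and the interval of CHAC1 ran from -0.37 to 0.15.

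SpACE against ABEmax changed 2 of 8 genes with each guide, where 6.76% of all genes were called with HEKsite2 and 13.1% with RNF2. Both were lower in SpACE: DDIT3 by 0.80 and 0.81 (adjusted p = 8.28e-10 and 9.11e-10) and ATF4 by 0.53 and 0.27 (adjusted p = 6.02e-09 and 8.07e-04). DDIT3 averaged 31.8 ± 2.93 CPM in SpACE and 55.5 ± 1.31 CPM in ABEmax with HEKsite2, and 28.1 ± 2.01 CPM in SpACE and 49.2 ± 2.61 CPM in ABEmax with RNF2. TRIB3 was lower in SpACE with HEKsite2 by 0.22 without being called (adjusted p = 0.0569), and it passed under 2 other scalings of library size (adjusted p = 0.0497 and 0.0444) and without SpACE replicate 1 (0.00534) or ABEmax replicate 2 (0.0259). CHAC1 (-0.26, adjusted p = 0.155) passed only without SpACE replicate 1 (-0.39, adjusted p = 0.0354). With RNF2 ATF5 was at -0.54 (adjusted p = 0.0635) and passed on library totals (adjusted p = 0.0447) and without SpACE replicate 2 (adjusted p = 0.0322).

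SpACE against Target-AID changed 2 genes with HEKsite2 (18.5% of all genes) and 3 with RNF2 (15.9%). ATF3 was lower in SpACE by 0.88 and 0.95 (adjusted p = 5.43e-13 and 6.79e-14), and DDIT3 was higher by 0.89 and 0.58 (adjusted p = 1.64e-10 and 4.72e-06). The third gene with RNF2 was ATF5, higher in SpACE by 0.68 (adjusted p = 0.0355), a call lost under DESeq2 (adjusted p = 0.0523), with only the groups compared in the fit (adjusted p = 0.0971) and without Target-AID replicate 1 or 2 or SpACE replicate 2 (adjusted p from 0.0893 to 0.219). Without Target-AID replicate 3, CEBPG (-0.21) and TRIB3 (0.25) also passed with RNF2, which brings the count to 5.

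The pair of adenine editors differed as well. ABEmax against miniABEmax-V82G changed 5 genes with HEKsite2 (3.5% of all genes) and 3 with RNF2 (0.972%), all higher in ABEmax. DDIT3 was higher by 0.68 ± 0.08 and 0.70 ± 0.08 (adjusted p = 3.45e-08 and 7.66e-08), ATF4 by 0.26 and 0.33, and CHAC1 by 0.43 and 0.42. ATF3 (0.40) and TRIB3 (0.44) passed with HEKsite2, and with RNF2 they were at 0.22 and 0.12 without passing. The ATF3 value with RNF2 passed when only the groups compared entered the fit (adjusted p = 0.0167). The CHAC1 call was lost when ABEmax replicate 1 or 3 or miniABEmax-V82G replicate 1 or 2 was left out with HEKsite2 (adjusted p from 0.0713 to 0.131), and with RNF2 for 5 of the 6 libraries of the pair (adjusted p from 0.0607 to 0.207).

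SpACE and miniABEmax-V82G differed in 2 genes with HEKsite2 (0.739% of all genes) and in 1 with RNF2 (5.85%). ATF3 was higher in SpACE by 0.31 with HEKsite2 (adjusted p = 0.0261) and by 0.38 with RNF2 (adjusted p = 0.00204), and ATF4 was lower by 0.28 with HEKsite2 (adjusted p = 0.0115). Both HEKsite2 calls were lost without miniABEmax-V82G replicate 1 or 2, ATF3 also without SpACE replicate 1 and ATF4 also without SpACE replicate 3 (adjusted p from 0.0572 to 0.212). DDIT3 differed by -0.12 and -0.11 and was not called, with 95% intervals from -0.28 to 0.06.

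The guides were compared within each construct. RNF2 against HEKsite2 changed 0 of the 8 genes in nCas9 (2.07% of all genes), 1 in ABEmax (2.26%), 3 in miniABEmax-V82G (9.94%), 0 in Target-AID (0% of all genes) and 0 in SpACE (0.0411%). At an unadjusted p under 0.05 there were 3 in nCas9, 2 in Target-AID and 3 in SpACE. Of all 14613 genes, 2222 in nCas9, 572 in Target-AID and 952 in SpACE passed that unadjusted threshold. DESeq2 called 0 of the 8 genes in these 3 constructs. ATF3 was lower with RNF2 in ABEmax (304 ± 16.6 CPM with RNF2 and 436 ± 10.1 CPM with HEKsite2, -0.52 ± 0.07, adjusted p = 7.69e-06). In miniABEmax-V82G ATF3 fell by 0.33 (adjusted p = 0.00305) and ATF4 by 0.18 (adjusted p = 0.0318), and CEBPG rose by 0.22 (adjusted p = 0.0346). The ATF4 call was lost without miniABEmax-V82G replicate 1 or 2 of either guide, on library totals and with no filter on low counts (adjusted p from 0.0563 to 0.143). The CEBPG call was lost without any 1 of 5 of the 6 libraries (adjusted p from 0.0849 to 0.149). CEBPB was at -0.46 (adjusted p = 0.0505) and passed under several alternatives (adjusted p from 0.0233 to 0.048). TRIB3 was at 0.20 (adjusted p = 0.0739) and passed on library totals (0.25, adjusted p = 0.0159) and with only the groups compared in the fit (0.20, adjusted p = 0.00873). ATF5 was at 0.32, DDIT3 at -0.18 and CHAC1 at 0.14, none of them called. In nCas9 ATF3 was at -0.24 without being called (adjusted p = 0.0996), and in SpACE at -0.27 (adjusted p = 0.258).

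Whether the change from nCas9 to an editor depends on the guide was tested with an interaction term. With edgeR, 0 of the 8 genes passed for any of the 4 editors, where 0% of all genes were called for ABEmax, 0.0137% for miniABEmax-V82G, 0.164% for Target-AID and 0.0274% for SpACE. At an unadjusted p under 0.05 there were 2 genes for ABEmax, 1 for miniABEmax-V82G, 2 for Target-AID and 1 for SpACE. Of all 14613 genes, 596 for ABEmax, 982 for miniABEmax-V82G, 1265 for Target-AID and 1083 for SpACE passed that unadjusted threshold. DESeq2 called 0 of the 8 genes. The largest term was that of ATF5 in Target-AID, at -0.86 with a 95% interval from -1.46 to -0.26 (adjusted p = 0.354). For ATF3 in Target-AID it was 0.04, with an interval from -0.17 to 0.25.

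How the 8 genes followed each other was described over the 11 group means of log2 CPM, which share controls and libraries and are therefore given without a test. Of the 28 pairs, 6 had a Pearson r above 0.8: CEBPG with CHAC1 (0.919), ATF3 with CEBPG (0.888), CEBPG with TRIB3 (0.882), TRIB3 with CHAC1 (0.879), ATF3 with CHAC1 (0.869) and ATF3 with CEBPB (0.805). ATF4 came closest to DDIT3 (0.724). ATF5 and CEBPB were lowest, at -0.726, and ATF3 with DDIT3 was at -0.06. Of 12604 genes that averaged at least 1 on the log2 CPM scale, those most like ATF3 were CRYAB (0.988), a small heat shock protein, LIMK2 (0.988) and HSPA6 (0.984), an inducible member of the HSP70 family. TRIB3 was most like SLC3A2 (0.983), the shared heavy chain of several amino acid transporters, EPC1 (0.983) and CALCB (0.979). CHAC1 was most like ATG5 (0.979), DEDD2 (0.956) and the bZIP gene JDP2 (0.955), and CEBPG most like INPP1 (0.982), NCOA4 (0.980) and YRDC (0.980). The closest genes were at lower r for ATF4 (CYB5R4, 0.909), CEBPB (CAP2, 0.941), DDIT3 (ODF2L, 0.938) and ATF5 (SLC9A3R1, 0.959).

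Other genes of the pathway were counted against nCas9 from lists chosen with earlier results of these data known. With HEKsite2, 8.31% of all genes were higher and 7.55% lower in ABEmax, 5.02% and 5.32% in miniABEmax-V82G, 21.5% and 19.1% in Target-AID, and 10.7% and 10.2% in SpACE. With RNF2 the shares were 6.51% and 4.66% in ABEmax, 6.88% and 5.72% in miniABEmax-V82G, 19.4% and 15.8% in Target-AID, and 8.03% and 6.68% in SpACE. Of 14 tested enzymes and regulators of amino acid synthesis that ATF4 is known to raise, 10 rose and 0 fell with ABEmax and HEKsite2, 6 and 0 with miniABEmax-V82G, 7 and 2 with Target-AID, and 9 and 0 with SpACE. ASNS, asparagine synthetase, rose by 0.78 with Target-AID, 0.75 with SpACE, 0.59 with ABEmax and 0.44 with miniABEmax-V82G (edgeR adjusted p from 2.56e-13 to 5.08e-06). Of 9 amino acid transporters, 7 rose with ABEmax, 5 with miniABEmax-V82G, 6 with Target-AID and 7 with SpACE, and 0 fell. SLC7A11, the cystine transporter, rose by 0.81 with Target-AID and 0.73 with ABEmax. Of 14 genes for tRNA synthetases and the tRNA exporter XPOT, 8 rose with ABEmax, 3 with miniABEmax-V82G, 7 with Target-AID (1 fell) and 9 with SpACE.

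For the RNF2 guide, the same lists had 8 of 14 synthesis genes higher with ABEmax, 5 with miniABEmax-V82G, 8 with Target-AID (1 lower) and 7 with SpACE, and 7 of 9 transporters higher with ABEmax, 5 with miniABEmax-V82G, 6 with Target-AID and 4 with SpACE. Of the 14 tRNA genes, 6 were higher with ABEmax, 6 with miniABEmax-V82G, 8 with Target-AID (1 lower) and 11 with SpACE. Of 24 further genes known as ATF4 targets, 14 rose with ABEmax and HEKsite2 and 0 fell, while 10 rose and 5 fell with Target-AID. SESN2, a stress-induced inhibitor of mTORC1 signalling, rose by 1.05 with ABEmax and 0.77 with Target-AID, and TNFRSF10B, a death receptor gene that DDIT3 is known to raise, rose by 1.84 with Target-AID (adjusted p = 1.15e-20), where DDIT3 itself fell.

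PPP1R15A (GADD34) is the stress-induced subunit that directs a phosphatase to eIF2alpha. With HEKsite2 it rose with every editor, by 1.09 with ABEmax, 0.89 with SpACE, 0.88 with Target-AID and 0.88 with miniABEmax-V82G. Of 17 regulators of eIF2alpha, 5 rose and 1 fell with ABEmax and HEKsite2, where 8.31% of all genes were higher and 7.55% lower. With the same guide 4 rose and 1 fell with miniABEmax-V82G (5.02% and 5.32%), and 6 and 1 with SpACE (10.7% and 10.2%). With Target-AID 7 rose and 5 fell, where 21.5% of all genes were higher and 19.1% lower. With RNF2, 4 rose and 0 fell with ABEmax (6.51% and 4.66%), and 3 and 2 with miniABEmax-V82G (6.88% and 5.72%). For Target-AID these were 9 and 4 (19.4% and 15.8%), and for SpACE 8 and 1 (8.03% and 6.68%). Of 17 genes of the unfolded protein response of the endoplasmic reticulum, 5 rose and 0 fell with ABEmax and HEKsite2. With the same guide 4 rose and 8 fell with Target-AID, and 4 rose and 4 fell with SpACE. HERPUD1 rose by 0.71 with ABEmax and 0.53 with Target-AID, and CALR, a chaperone of that compartment, fell by 0.52 with Target-AID. Of 31 other bZIP genes, 12 rose and 6 fell with Target-AID and HEKsite2, beside 21.5% and 19.1% of all genes. JUN was higher by 1.15 and FOSL2 by 1.73 in that comparison. With RNF2, 3 of the 17 unfolded protein response genes rose and 0 fell with ABEmax, where 6.51% of all genes were higher. With Target-AID and RNF2, 4 of them rose and 3 fell, where 19.4% of all genes were higher and 15.8% lower.

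Of 15 heat shock genes, 12 rose with ABEmax and HEKsite2, 12 with miniABEmax-V82G, 11 with Target-AID (1 fell) and 12 with SpACE (1 fell), with median log2 fold changes of 0.94, 0.79, 1.09 and 1.03. HSPA1B rose by 3.39 with Target-AID and 2.20 with ABEmax. In nCas9 against GFP with HEKsite2, where ATF3 was higher, 2 heat shock genes were higher and 8 lower, with HSPA1B at -1.17, while 19.6% of all genes were higher and 18.8% lower. In the same comparison 5 synthesis genes were higher and 7 lower, 2 transporters higher and 2 lower, 2 tRNA genes higher and 7 lower, and 14 of the 24 further targets higher and 1 lower. For nCas9 with RNF2 against GFP (21% of all genes higher, 20.5% lower), the counts were 4 and 4 synthesis genes, 5 and 1 transporters, 2 and 8 tRNA genes, 13 and 1 further targets, and 3 and 8 heat shock genes, higher and lower.

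**Figure D5:**
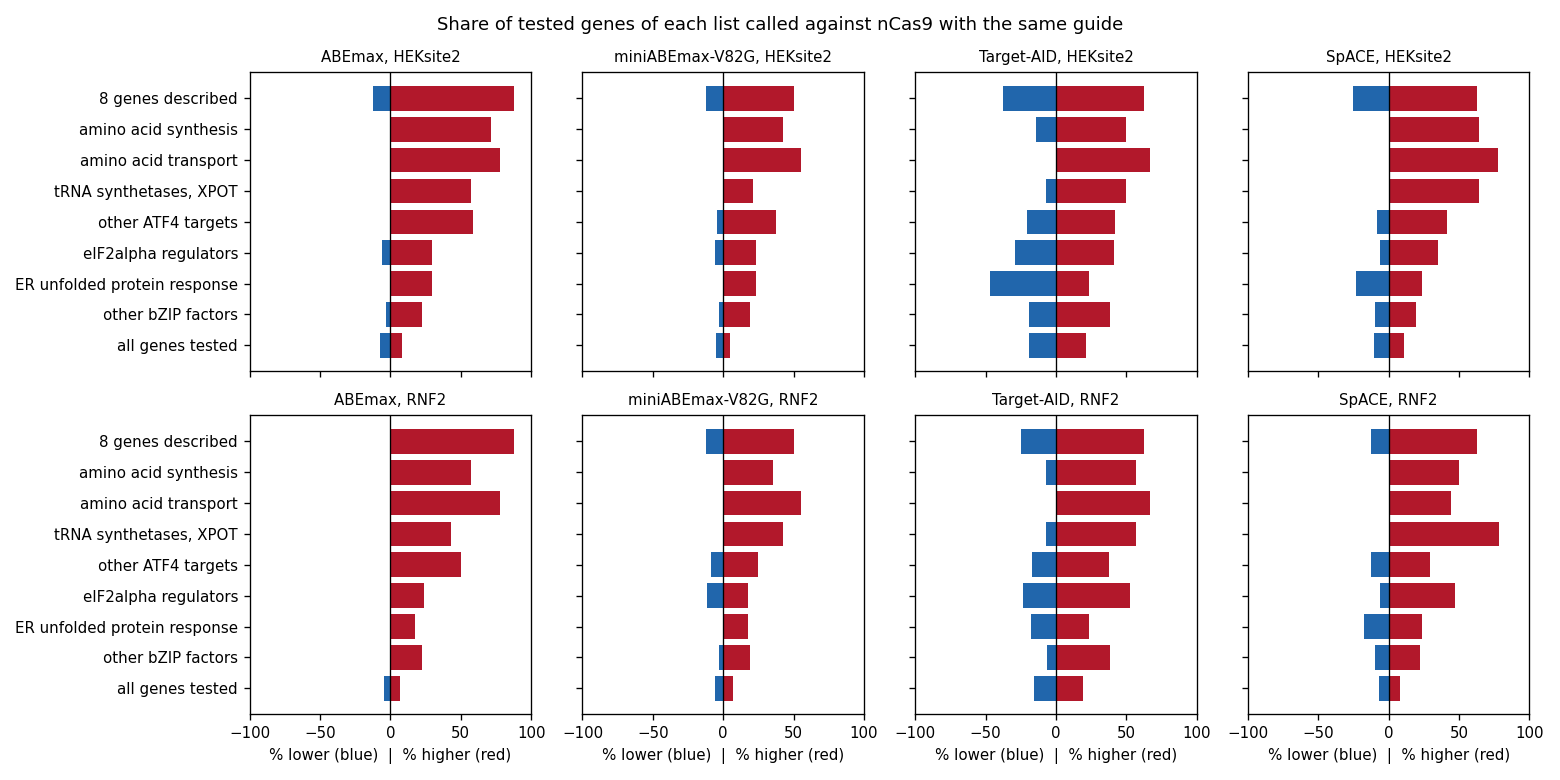
Share of the tested genes of each list (rows) that were called lower (blue, to the left) or higher (red, to the right) against nCas9, in percent (x axis), for the 4 editors with HEKsite2 (top) and RNF2 (bottom); the lowest row is all 14613 genes. The ATF4 target lists lean to higher for all 4 editors. The unfolded protein response list has 8 of 17 genes lower with Target-AID and HEKsite2, and 3 lower with Target-AID and RNF2.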

How the data were processed

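RNA from 33 libraries was measured by stranded total RNA sequencing, per the labels' protocols. The authors deposited raw read counts per gene in 1 table, and the submitters' processing notes name STAR, GATK 3.8.1, Picard 2.7 and GRCh38. Neither the counting tool nor its strand setting or annotation is stated there. The columns of the SpACE libraries also carry the word UGI, which the labels do not mention. Groups were taken from the labels.

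Counts were scaled with the trimmed mean of M values (factors 0.9369 to 1.051) and filtered with filterByExpr in edgeR 4.0.16 (limma 3.58.1, R 4.3.3), and 11 group means were fitted to 33 libraries by quasi-likelihood, with 22 residual degrees of freedom. In all, 37 comparisons were tested, each adjusted over 14613 genes. In simulated data with a fixed spread, the code recovered most of the largest changes planted in genes above a count floor. Recovery of smaller changes is not given here. Alternatives were DESeq2 1.42.0, RLE and total-count scaling, no filter, a replicate block, only the groups compared, and each library left out. Figures used matplotlib 3.10.9 and tables pandas 2.3.3 in Python 3.11.15.

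All 8 genes were tested in every comparison, and the text names those called and some of those not called. From other lists it gives counts and up to 4 called genes by smallest p. Genes alike in pattern were the 3 with the highest r over group means of log2 CPM (prior count 2). The members and lists were chosen with earlier results of these data known. Gene positions came from GENCODE on GRCh38 and promoter windows from RefSeq on GRCh38.p14.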

Additional observations from a re-analysis of the deposited data

How the results depend on the processing

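Of 3744 values of the 8 genes recomputed under the alternatives, 3628 kept their side of the threshold. Another 83 kept the direction and lost the call, 33 gained one, and 0 reversed. A reversal was counted only where the value was called before or after, so values called in neither fit may have changed sign. The count of genes called moved by over 1.5 times in few comparisons. For RNF2 against HEKsite2 in nCas9 it was 1 rather than 0 with no filter on low counts, under the replicate block and with only the groups compared. In miniABEmax-V82G it was 5 rather than 3 with only the groups compared, and in SpACE 1 rather than 0 with no filter. Leaving out 1 library gave 2 to 4 for SpACE against ABEmax with HEKsite2, 0 to 2 for SpACE against miniABEmax-V82G with HEKsite2, 2 to 5 for SpACE against Target-AID with RNF2, and 1 to 3 for RNF2 against HEKsite2 in miniABEmax-V82G. The cause was not tested. Whether replicate numbers pair the samples was left unsettled, and the main fit had no replicate block. In 0 of 33 comparisons did every same-numbered pair correlate above 0.1 (r from -0.134 to 0.215), but 24 of 33 libraries were closest to their own number. Under the replicate block 5 further values passed: CEBPG in miniABEmax-V82G against nCas9 (adjusted p = 0.0495), TRIB3 in SpACE against ABEmax (0.0469) and CEBPG in SpACE against Target-AID (0.0458), all with HEKsite2, and ATF3 in nCas9 (0.0416) and CEBPB in miniABEmax-V82G (0.048) between guides. Counts of all genes moved by over 1.5 times in 93 of 468 cases, 69 of them with a library left out. On library totals the share of higher calls among all genes also moved by over 10 points outside the GFP comparisons. With RNF2 it moved to 24.0% against 47.2% for SpACE against ABEmax and to 26.7% against 52.6% for SpACE against miniABEmax-V82G. For SpACE against nCas9 with RNF2 it moved to 41.6% against 54.6%. With HEKsite2 it moved to 70.8% against 59.3% for SpACE against miniABEmax-V82G. Between guides it moved to 47.0% against 20.9% in ABEmax, 70.5% against 47.0% in miniABEmax-V82G and 50.4% against 29.1% in nCas9. For the interactions, where few genes were called, it moved to 50% against 75% for SpACE and 66.7% against 83.3% for Target-AID. Low counts of ATF5 and CEBPB limit their precision.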
